A study of Mus musculus with 8 samples.

Results

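The TNF superfamily is a set of related ligands and cell surface receptors, and 10 of its genes were followed here in cultured mouse microglia, of 55385 genes in the deposited table. The genes are the ligands Tnfsf8, Tnfsf10 and Tnfsf13b, the death domain receptors Fas and Tnfrsf1a, and the receptors Tnfrsf1b, Tnfrsf4, Cd27, Tnfrsf9 and Tnfrsf11a, which have no death domain. They were found in the table by their gene symbols. They were selected on measured values, the differences between IgG-treated and control libraries in these same data, so that their values in this contrast are a description and carry no test. All 10 are protein coding genes on the GRCm38 build, and 9 of them had enough counts to enter the comparison over 17537 genes. Tnfrsf9 did not.

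Ligands of this family are trimers, mostly anchored in the membrane, and they cluster their receptors on the cell that carries them. Receptors with a death domain can recruit adaptors that activate caspases, whereas the others bind TRAF proteins and lead to NF-kB and MAP kinase signalling. In brain, microglia are a main source of TNF. Tnfrsf11a is best known for its role, beside Csf1r, in the formation of osteoclasts from macrophage precursors. Tnfrsf4 and Cd27 are best known as costimulatory receptors of T cells.

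Wild-type microglia had been shaken off mixed cultures of neocortex and hippocampus of newborn mice, with the cells of several brains pooled. The control group (4 libraries) is labelled untreated. By the description of the experiment its cells received PBS. The IgG group (4 libraries) received 10 µg/ml IgG for 24 h from DIV15 (day 15 in vitro). Replicate numbers are shared between the groups, and libraries that share a number carry one date in the labels. Each group is described as 4 cultures.

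Each library held between 21287816 and 23703216 counts, at which 3 counts, the upper limit that a count of 0 allows, equal 0.127 to 0.141 CPM (counts-per-million of the library). Such limits cover counting error only. Mitochondrial genes took 4.85% and 5.59% of the counts of IgG replicates 1 and 3 and between 1.97% and 2.41% of the other 6 libraries. All 10 microglial markers (Csf1r, Cx3cr1, P2ry12 and others) were above 3 counts in every library. Their summed level was 6910 to 7581 CPM in the control libraries and 7650 to 8172 CPM in the IgG libraries.

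Short stretches of DNA at the start sites of 5 members are shown, because these are the members with the largest differences between groups, together with those that hold an interferon-type motif. The sequences are from RefSeq on GRCm38.p6, whose table had 12 windows of 300 bases (250 before to 50 after the start) for the 10 genes. The motifs searched, on both strands, were GAAANNGAAA (interferon-stimulated response element type), TTCNNNGAA (STAT site type) and GGGANNTTCC (NF-kB site type), and capitals mark a match to the first. The stretches of Tnfsf10 (chr3:27316827-27317027, plus strand), Tnfrsf4 (chr4:156013611-156013694, plus strand) and Cd27 (chr6:125237028-125237277, minus strand) lie before the start and touch no annotated exon, and they hold none of these motifs.
Tnfsf10: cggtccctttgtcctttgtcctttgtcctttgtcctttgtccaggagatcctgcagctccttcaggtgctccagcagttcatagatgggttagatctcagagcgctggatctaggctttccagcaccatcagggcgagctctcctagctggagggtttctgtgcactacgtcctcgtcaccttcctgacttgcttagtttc
Tnfrsf4: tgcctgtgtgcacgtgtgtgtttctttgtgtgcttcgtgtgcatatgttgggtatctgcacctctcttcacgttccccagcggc
Cd27: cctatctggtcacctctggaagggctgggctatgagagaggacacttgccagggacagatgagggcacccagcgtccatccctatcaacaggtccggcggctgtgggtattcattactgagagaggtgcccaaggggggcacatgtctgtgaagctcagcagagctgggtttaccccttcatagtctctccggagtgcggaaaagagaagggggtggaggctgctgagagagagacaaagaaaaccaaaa
The 30 bases around the matches of Tnfsf13b (chr8:10006607-10006636, plus strand) and Tnfrsf1b (chr4:145246861-145246890, minus strand) follow, of which all 30 and 10 bases, respectively, lie in annotated GENCODE exons.
Tnfsf13b: tacaaaaactGAAAGTGAAAtgcggaaggc
Tnfrsf1b: ggcctgagggTTTCGCTTTCagtcaccagc

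The first motif was found in the windows of 2 of the 10 genes and in 3.44% of all 32851 windows of the table. In Tnfsf13b it began 16 bases before the second of its RefSeq starts. In Tnfrsf1b it ended 1 base before the start and lay on the other strand. The second motif was found in windows of 4 genes (Tnfrsf1b, Tnfrsf9, Tnfrsf1a and Fas) and in 8.3% of all windows, and the third in none of the 10 genes and in 1.47% of all windows. A match of letters is a description of the sequence and not evidence of binding.

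Levels of different genes were compared per length of exon, as counts per kilobase, scaled in the way of TPM (n = 4 control libraries, mean ± SD). Tnfrsf1b, the TNF receptor found mainly on immune cells, stood first of the whole family with 207 ± 8.55. Tnfrsf1a, the widely expressed TNF receptor with a death domain, followed at 103 ± 6.12, and Tnfrsf11a, the receptor for the ligand encoded by Tnfsf11, at 26.9 ± 3.58. The ranges of these 3 receptors did not overlap with each other or with those of the remaining members. The other members formed a low group, with Fas at 1.42 ± 0.454, Tnfsf10 at 1.06 ± 0.462, Tnfrsf4 at 1.01 ± 0.237, Cd27 at 0.755 ± 0.139, Tnfsf13b at 0.608 ± 0.0775 and Tnfsf8 at 0.367 ± 0.151. Within it no gene differed from its neighbour in the order beyond the spread over control libraries.

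Tnfrsf1b lay above 96.6% of all genes tested in length-scaled level and Tnfrsf1a above 93.6%, whereas the 6 low members lay above only 3.66% to 15.9%. In the IgG libraries Tnfrsf4 (0.396) and Cd27 (0.356) were last among the tested members by mean, behind Tnfsf13b (0.811) and Tnfsf8 (0.437). The IgG ranges of Tnfsf8 (0.225 to 0.763), Tnfrsf4 (0.190 to 0.599) and Cd27 (0.221 to 0.597) overlapped, so that their order lies within the spread. The lower place of Tnfrsf4 and Cd27 restates the contrast that was used in choosing the members. With the longest transcript as the length, Tnfrsf4 and Cd27 stood above Tnfsf10, so that the order within the low group also depends on the length used. Among the other family genes the highest were the ligand Tnfsf12 (128), the lymphotoxin receptor Ltbr (54.0), the death receptor Tnfrsf21 (49.4), the ligand Tnfsf13 (24.8) and Tnf (22.8). Tnfsf12 and Tnfsf13 share exons with the annotated read-through gene Tnfsfm13, so that their levels are uncertain. The plot of length-scaled levels places the members within the family.

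**Figure D1:**
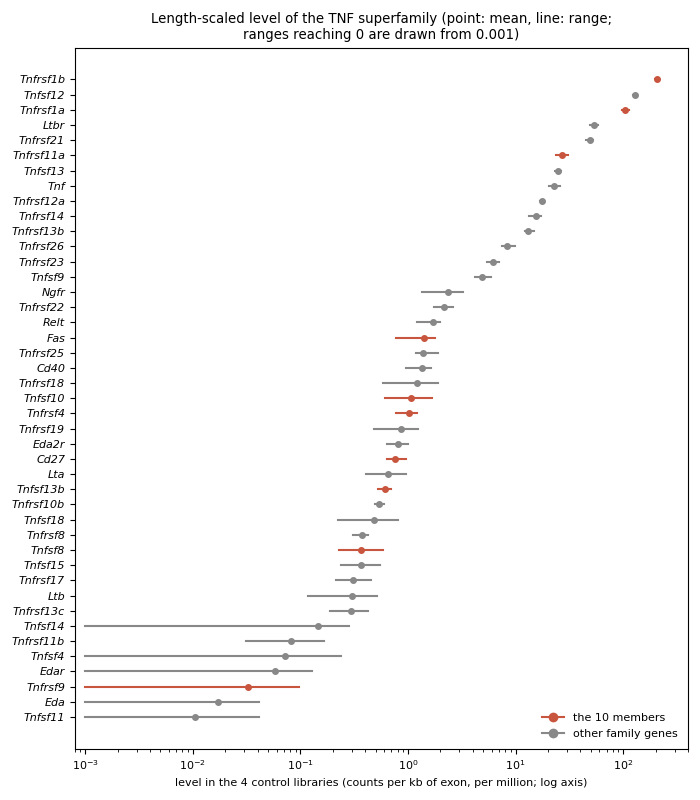
Length-scaled level of each TNF superfamily gene with counts in the control group, on a log axis in counts per kilobase of exon, scaled in the way of TPM. Points are means and lines are ranges over 4 control libraries, with the 10 members in red. Tnfrsf1b (207), Tnfrsf1a (103) and Tnfrsf11a (26.9) stand apart from the other members, which are at 1.42 or lower.

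The ligands were present at low levels, and the values below are TMM-scaled CPM. Tnfsf10, which encodes the apoptosis-inducing ligand TRAIL (chromosome 3, 27317028 to 27342427, plus strand), was at 4.23, 2.07, 2.72 and 1.51 CPM in control replicates 1 to 4. It was at 6.24, 2.83, 5.60 and 1.91 CPM in IgG replicates 1 to 4. The groups overlapped, but within each of the 4 pairs the IgG library was the higher one, by 0.55, 0.43, 1.02 and 0.33 on the log2 scale. The fitted log2 fold change was 0.65 (SE 0.41) without the replicate number and 0.62 (SE 0.18) with it as a block. It ran from 0.38 without IgG replicate 1 to 0.98 without control replicate 1. Replicates 1 and 3 were the higher ones in both groups.

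Tnfsf13b, which encodes the B cell survival factor BAFF (chromosome 8, 10006467 to 10039072, plus strand), was at 1.83, 2.12, 1.72 and 2.20 CPM in the control libraries. In the IgG libraries it was at 2.40, 2.83, 3.48 and 2.82 CPM. It was the only member whose IgG libraries all lay above all control libraries, which holds for 2.6% of all genes tested. The log2 fold change was 0.55 (SE 0.19), with pairs at 0.38, 0.40, 0.99 and 0.35. Control libraries of this gene varied by 11.7%, where counting alone gives 14.8%, and IgG libraries by 15.5%, where it gives 12.6%.

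Tnfsf8, the ligand of the receptor CD30 (chromosome 4, 63831308 to 63861347, minus strand), had 14, 9, 25 and 14 counts in the control libraries and 12, 20, 32 and 10 counts in the IgG libraries. Its pairs went both ways (-0.06, 0.95, 0.55 and -0.35), and the log2 fold change of 0.37 was smaller than its standard error of 0.44. It ran from -0.07 without IgG replicate 3 to 0.69 without control replicate 3. Replicate 3 was the highest of both groups.

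Among the receptors with a death domain, Fas (chromosome 19, 34290666 to 34327772, plus strand) had 35, 38, 39 and 17 counts in the control libraries and 48, 20, 40 and 47 counts in the IgG libraries. The pairs were at 0.58, -0.91, 0.25 and 1.44, and the log2 fold change of 0.38 was about as large as its standard error of 0.35. The groups overlapped, with 1 low library in each. In the fit with the block the value ran from 0.00032 without replicate 4 to 0.77 without replicate 2.

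Tnfrsf1a (chromosome 6, 125349362 to 125362484, plus strand) was at 127, 119, 137 and 122 CPM in the control libraries and at 143, 120, 141 and 142 CPM in the IgG libraries. IgG replicate 2 lay well below the other 3 of its group and within the control range. The log2 fold change was 0.11 (SE 0.09), from 0.06 without replicate 4 in the fit with the block to 0.17 without IgG replicate 2, and 0.01 with scaling to total counts alone, which moves the median of all genes by -0.10.

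Of the receptors without a death domain, Tnfrsf1b (chromosome 4, 145213463 to 145246870, minus strand) varied least. It was at 374, 386, 353 and 371 CPM in the control libraries and at 403, 361, 386 and 368 CPM in the IgG libraries. The log2 fold change was 0.03 (SE 0.08), and its sign turned with total counts alone (-0.07), without IgG replicates 1 and 3 (-0.03) and without replicate 3 in the fit with the block (-0.00046). The ratio of Tnfrsf1b to Tnfrsf1a, per length of exon, was 2.01 ± 0.196 (SD, n = 4) in the control group and 1.90 ± 0.120 (SD, n = 4) in the IgG group, with overlapping ranges.

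Tnfrsf11a, which encodes RANK (chromosome 1, 105780718 to 105847981, plus strand), was at 88.0, 67.2, 82.3 and 66.2 CPM in the control libraries and at 106, 75.2, 98.5 and 65.2 CPM in the IgG libraries. As with Tnfsf10, replicates 1 and 3 were the higher ones in both groups. The pairs were at 0.27, 0.16, 0.26 and -0.02, and the log2 fold change was 0.18 (SE 0.16). It ran from 0.07 without IgG replicate 1 to 0.30 without IgG replicate 4.

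Tnfrsf4, which encodes OX40 (chromosome 4, 156013843 to 156016612, plus strand), had 19, 12, 12 and 18 counts in the control libraries and 3, 8, 9 and 4 counts in the IgG libraries. All IgG libraries lay below all control libraries. The log2 fold change was -1.22 (SE 0.40), with pairs at -1.95, -0.53, -0.16 and -1.67. Only the control group brought this gene past the filter on low counts, as all 4 control libraries and 0 IgG libraries had at least 10 counts. A gene that passes in this way has to be lower in the other group. The control libraries varied by 23.2%, against 25.6% from counting alone, and the IgG libraries by 51.1%, against 40.8%.

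Cd27 (chromosome 6, 125232622 to 125237010, minus strand) had 18, 23, 20 and 16 counts in the control libraries and 10, 15, 6 and 6 counts in the IgG libraries. Here too the groups did not overlap, and the pairs were at -0.60, -0.60, -1.27 and -1.10. The log2 fold change was -0.96 (SE 0.34). All 4 control libraries but only 2 IgG libraries had at least 10 counts, so that the control group, where it was higher, also brought this gene past the filter. An exon of Cd27 holds the annotated microRNA gene Mir8113, which had 11 counts over all libraries. Groups in which the IgG libraries all lay below the control libraries were found for 1.57% of all genes tested, and Tnfrsf4 and Cd27 are the 2 members among them.

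Tnfrsf9, the receptor CD137 (chromosome 4, 150914562 to 150946102, plus strand), had 1, 0, 3 and 0 counts in the control libraries and 0 in all 4 IgG libraries. Both groups were at or under the limit of 3 counts, and no fold is given. The receptor was not detectable at this depth in the IgG group, where a count of 0 allows up to 0.136 CPM. The plot of members by library shows all values.

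**Figure D2:**
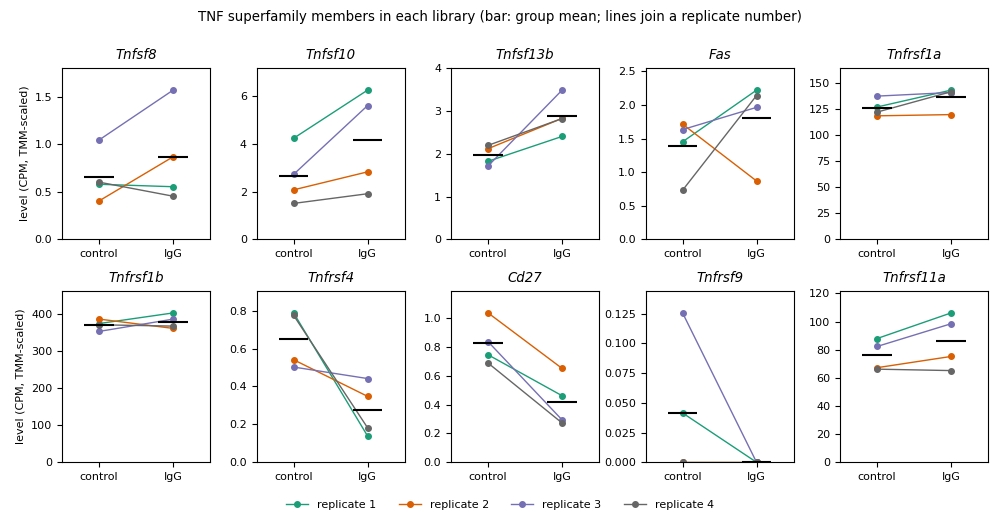
Level of each member in TMM-scaled CPM, in 4 control and 4 IgG libraries. Lines join libraries of the same replicate number and black bars are group means. Tnfrsf4 and Cd27 are lower and Tnfsf13b is higher in every IgG library than in any control library, whereas the groups of the other tested members overlap.

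The criterion, an unadjusted p-value under 0.01 with an absolute log2 fold change above 0.5, was met by 0 of the 9 tested members in edgeR's quasi-likelihood fit with the group as the only term. Of all genes, 0.582% met it as higher and 0.262% as lower with IgG. With the replicate number as a block, 1 member (Tnfsf10) met it, as did 1.48% of all genes in that direction, and 0 members met it as lower (0.342% of all genes). Tnfsf10 no longer met it in this fit with length and GC trends removed (log2 fold change 0.53), nor without replicate 1, 2 or 3. Across genes, the difference within a pair correlated with GC content at Spearman's rho of -0.42, -0.03, -0.42 and 0.34 in pairs 1 to 4. At an adjusted p-value under 0.05 there were 0 members in either fit, and 0% of all genes without and 0.393% with the block. At an unadjusted p-value under 0.05 there were 3 members without the block (7.01% of all genes) and 4 with it (10.2%). DESeq2 called 0 members by the criterion (0.855% of all genes as higher and 0.382% as lower). In all 4 pairs the same way, 3 members were higher (10.4% of all genes) and 2 were lower (8.47%). Nothing is read from these counts, because the contrast was used in choosing the members.

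Differences between replicate numbers were not used in the choice. They were tested with edgeR's quasi-likelihood F test in the model with replicate number and group, adjusted over all genes. Here 0 of 9 members passed an adjusted p-value of 0.05, against 0.975% of all genes tested (171 genes), and 2 members had an unadjusted p-value under 0.05, against 9.81% of all genes. These were Tnfsf10 (edgeR adjusted p = 0.086) and Tnfrsf11a (edgeR adjusted p = 0.225). Tnfsf10 passed when replicate 3 was left out (adjusted p = 0.045), without the filter on low counts (adjusted p = 0.00046) and with the likelihood ratio test of DESeq2 (adjusted p = 0.0069). For the other tested members the adjusted p-values ran from 0.545 to 0.998.

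The summed level of 8 markers of the oligodendrocyte lineage also differed between replicate numbers. It was 1132, 1726, 1172 and 1564 CPM in control replicates 1 to 4 and 972, 1622, 986 and 1517 CPM in IgG replicates 1 to 4, so that it was lowest where Tnfsf10 and Tnfrsf11a were highest. All 8 markers were above 3 counts in every library and none was at 0. Its part in the levels of these members was not tested. In bulk RNA, fewer cells of a type and less RNA per cell cannot be told apart.

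**Figure D3:**
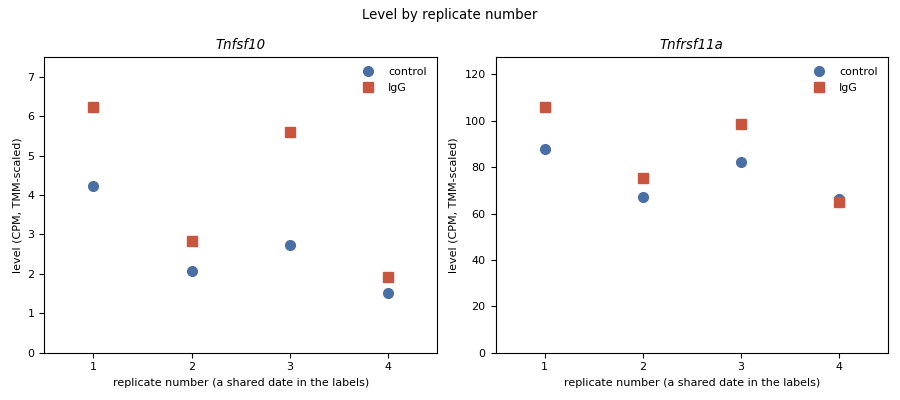
TMM-scaled CPM of Tnfsf10 and Tnfrsf11a by replicate number, with 1 control library (circle) and 1 IgG library (square) at each number. Both genes are higher at replicates 1 and 3 than at 2 and 4 in either group, from 4.23 down to 1.51 CPM for Tnfsf10 in the control group.

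Without IgG replicates 1 and 3, which had the higher mitochondrial share, the fitted log2 fold changes of Tnfsf10 (-0.15) and Tnfrsf11a (-0.11) turned their sign. That fit sets 2 IgG libraries against all 4 control libraries, without the block. Within the remaining pairs 2 and 4 alone, the mean difference was 0.38 for Tnfsf10 and 0.07 for Tnfrsf11a. When replicates were left out, values ran from -1.63 to -0.90 for Tnfrsf4, from -1.25 to -0.80 for Cd27 and from 0.39 to 0.63 for Tnfsf13b. These genes were chosen with their directions known, so that the ranges describe size and are no sign of stability. The plot of members under each alternative gives the spread.

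**Figure D4:**
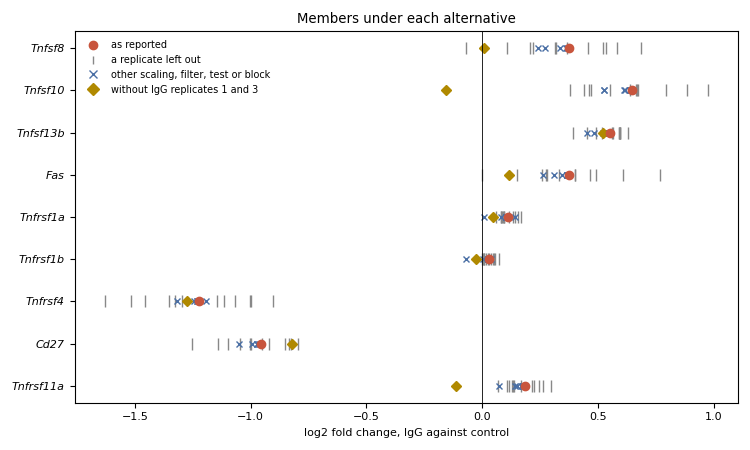
Log2 fold change, IgG against control, of the 9 tested members as reported (red) and under each alternative, with ticks for fits that leave out a replicate, crosses for other scalings, filters, tests and the block, and diamonds for the fit without IgG replicates 1 and 3. The values of Tnfrsf4 spread from -1.63 to -0.90 when replicates are left out, and the diamond of Tnfsf10 (-0.15) lies on the other side of 0 from its reported value of 0.65.

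The lymphoid genes among the members were set beside markers of T cells and NK cells. Of 12 T cell markers, 5 were above 3 counts in every library, and Cd3d, Cd3e, Cd3g and Cd8a were at 0 counts in all 8 libraries. The summed T cell level, mostly from Il7r and Cd247, was 47.7, 35.7, 40.0 and 35.1 CPM in control replicates 1 to 4 and 61.9, 35.2, 58.1 and 29.5 CPM in IgG replicates 1 to 4. This sum was higher at replicates 1 and 3 in both groups, as were Tnfsf10 and Tnfrsf11a. Il7r had the same order (861, 573, 714 and 569 counts in control and 1055, 548, 927 and 443 counts in IgG libraries). The list as a whole did not. Cd247 had 172 counts in control replicate 3 and 178 in control replicate 4, and Cd4 was lower at control replicates 1 and 3. Cd4 had 6, 13, 9 and 18 counts in the control and 19, 19, 16 and 29 counts in the IgG libraries (log2 fold change 0.94, SE 0.37). The other tested T cell markers were Il7r (0.25, SE 0.27), Cd5 (0.22, SE 0.41), Cd247 (0.13, SE 0.20) and Lck. Lck went the other way (-0.26, SE 0.20), with 56, 48, 53 and 38 counts in the control and 34, 37, 42 and 38 counts in the IgG libraries. Of 8 NK cell markers, 1 was above 3 counts in every library (1.13 to 2.84 CPM in sum in control and 1.30 to 2.13 CPM in IgG libraries), and Ncr1, Klrd1, Nkg7, Gzma and Gzmb were at 0. Trac, the T cell receptor alpha constant gene, had 1, 1 and 2 counts in control replicate 3 and IgG replicates 1 and 3 and 0 in the other libraries, and Cd247 had 116 to 222 counts in every library. The part of T cells in the values of the members was not tested.

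Markers of border-associated macrophages summed to 218 to 309 CPM in the control and 310 to 441 CPM in the IgG libraries, with 4 of 6 above 3 counts in every library and none at 0 in all 8 libraries, although Lyve1 and Cd163 had at most 5 counts. The sums did not overlap between groups, as with Tnfsf13b and with the summed microglial markers given above. Of the 6 genes this holds for Ms4a7 alone (3731 to 5557 counts in control and 5679 to 7242 counts in IgG libraries). Mrc1 overlapped (1174 to 1792 and 938 to 2193 counts). The part of these cells in the values of the members was not tested. Astrocyte markers summed to 171 to 196 CPM and 149 to 191 CPM (8 of 8 above 3 counts in every library), neuronal markers to 39.5 to 61.6 CPM and 35.0 to 50.5 CPM (6 of 6), and markers of fibroblasts and vessels to 10.2 to 14.9 CPM and 9.88 to 16.6 CPM (4 of 8, with Cldn5 at 0).

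The known partners of the members were then examined in the same libraries. Of 15 different partners, 7 were above 3 counts in all 8 libraries, and 2, the ligands Fasl of Fas and Cd70 of Cd27, had 0 counts in all 8. Tnf, the ligand of Tnfrsf1a and Tnfrsf1b, had 317 to 488 counts per library and a length-scaled control level of 22.8, and its log2 fold change was 0.11 (SE 0.14). Lta, another ligand of both, had only 63 counts over all libraries. The ligands Tnfsf4 of Tnfrsf4 and Tnfsf11 of Tnfrsf11a had 8 and 9 counts in all, so that these receptors were measured here with little or no ligand RNA. Tnfsf9, the ligand of Tnfrsf9, had 549 counts in all, more than its receptor, but shares exon bases with the antisense gene Gm11110.

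For Tnfsf10, the death receptor Tnfrsf10b had 25 to 37 counts per library and a length-scaled control level of 0.537. The decoy receptors Tnfrsf22 and Tnfrsf23, which lack a working death domain, were at 2.15 and 6.12, although Tnfrsf23 shares exon bases with the antisense gene E230032D23Rik. The soluble decoy Tnfrsf11b had 19 counts in all. For Tnfsf13b, the receptor Tnfrsf13b had 364 to 451 counts per library, whereas Tnfrsf13c and Tnfrsf17 had 57 and 26 counts over all libraries. The ratio of Tnfrsf13b to Tnfsf13b per length of exon was 21.5 ± 2.01 (SD, n = 4) in the control group and 15.5 ± 1.56 (SD, n = 4) in the IgG group, and its ranges did not overlap, which restates the values of Tnfsf13b given above. Ratios of Tnfrsf10b to Tnfsf10 (0.566 ± 0.189 in control and 0.419 ± 0.285 in IgG libraries) and of Tnfrsf1a to Tnf (4.57 ± 0.440 and 4.66 ± 0.987) overlapped between the groups (SD, n = 4). Tnfrsf8, the receptor of Tnfsf8, had 11 to 24 counts per library. In edgeR's test 0 of the 7 tested partners met the criterion without or with the block.

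The rest of the family and its pathway were taken as whole lists. Of 36 other ligands and receptors, 23 were tested. Of these, 14 had a positive and 9 a negative log2 fold change (8898 and 8639 over all genes). Their median was 0.07, beside 0.0036 over all genes tested, and turned to -0.0094 with total counts alone, beside -0.09 over all genes. In edgeR, 0 of these genes met the criterion without and 0 with the block, and 0 in DESeq2. At an unadjusted p-value under 0.05 there was 1 gene of 23 without the block (7.01% of all genes), Tnfrsf26, and there were 2 with it (10.2% of all genes), Tnfrsf26 and Tnfrsf22. Tnfrsf26, a receptor of the decoy cluster, was named after its values were seen. Its log2 fold change was 0.53 (SE 0.24, edgeR adjusted p = 0.69), and it was higher in 4 of 4 pairs, as were 10.4% of all genes. The mean difference was 0.82 in pairs 1 and 3, whose IgG libraries had the higher mitochondrial share, and 0.10 in pairs 2 and 4. Tnfrsf26 shares exon bases with the antisense gene E230032D23Rik.

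All 23 adaptors and ubiquitin enzymes of the pathway (the Traf genes, Tradd, Ripk1, Cyld and others) were tested. They had 17 positive and 6 negative log2 fold changes, beside 8898 and 8639 over all genes. Their median was 0.07, beside 0.0036 over all genes, and -0.03 with total counts alone, beside -0.09. The criterion was met by 0 genes of the list without the block, with it or in DESeq2. In edgeR without the block, 1 of them, Traf2, had an unadjusted p-value under 0.05 (log2 fold change 0.22, SE 0.09, adjusted p = 0.69), as did 7.01% of all genes. With the block its unadjusted p-value in edgeR was 0.062, and 0 genes of the list were under 0.05 (10.2% of all genes). It was named after its values were seen.

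Of 14 genes of the death branch (Fadd, caspases, Mlkl and others), 13 were tested. They had 11 positive and 2 negative log2 fold changes, beside 8898 and 8639 over all genes. Their median was 0.10, beside 0.0036 over all genes, and 0.0065 with total counts alone, beside -0.09. In edgeR no gene of this list (0 of 13) met the criterion without the block, beside 0.582% of all genes as higher and 0.262% as lower. With the block 1 did, Mlkl, the pore-forming protein of necroptosis, as did 1.48% of all genes in that direction. Mlkl was at 5.56, 4.33, 6.24 and 2.58 CPM in the control libraries and at 15.4, 5.74, 12.5 and 4.14 CPM in the IgG libraries. Its log2 fold change was 1.01 (SE 0.42) without and 0.92 (SE 0.19, edgeR adjusted p = 0.13) with the block. It was higher with IgG in 4 of 4 pairs, as were 10.4% of all genes. The mean difference was 1.22 in pairs 1 and 3 and 0.53 in pairs 2 and 4. Like Tnfsf10, Mlkl was highest at replicates 1 and 3 of both groups. Ripk3, the kinase that acts on Mlkl, had a log2 fold change of -0.37 (SE 0.15, edgeR adjusted p = 0.69), and was named after its values were seen. It was lower in 4 of 4 pairs, as were 8.47% of all genes.

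Of 20 genes listed as TNF response genes (Nfkbia, Icam1, Ccl2 and others), 17 were tested for IgG against control. Whether each of them responds to TNF in these cells was not tested. They had 10 positive and 7 negative log2 fold changes, beside 8898 and 8639 over all genes. Their median was 0.03, beside 0.0036 over all genes, and -0.06 with total counts alone, beside -0.09. In edgeR 1 gene met the criterion without and with the block, Nfkbiz, a nuclear regulator of NF-kB. Of all genes, 0.582% met it as higher without and 1.48% with the block. Nfkbiz was at 55.3, 47.6, 54.6 and 39.9 CPM in the control libraries and at 81.7, 90.9, 75.6 and 60.2 CPM in the IgG libraries. Its groups did not overlap, which holds for 2.6% of all genes in that direction. Its log2 fold change was 0.64 (SE 0.14, edgeR adjusted p = 0.57), and 0.64 (SE 0.10, edgeR adjusted p = 0.052) with the block. Between replicate numbers 1 gene of this list passed, as did 0.975% of all genes. This was the chemokine gene Cxcl10 (edgeR adjusted p = 0.049), named after its values were seen. It did not pass with total counts alone (adjusted p = 0.071), with at least 10 counts in every library (0.062) or without any 1 of the replicate numbers (0.056 to 0.13), and passed without a filter and in DESeq2. The plot of fold changes shows the lists side by side.

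**Figure D5:**
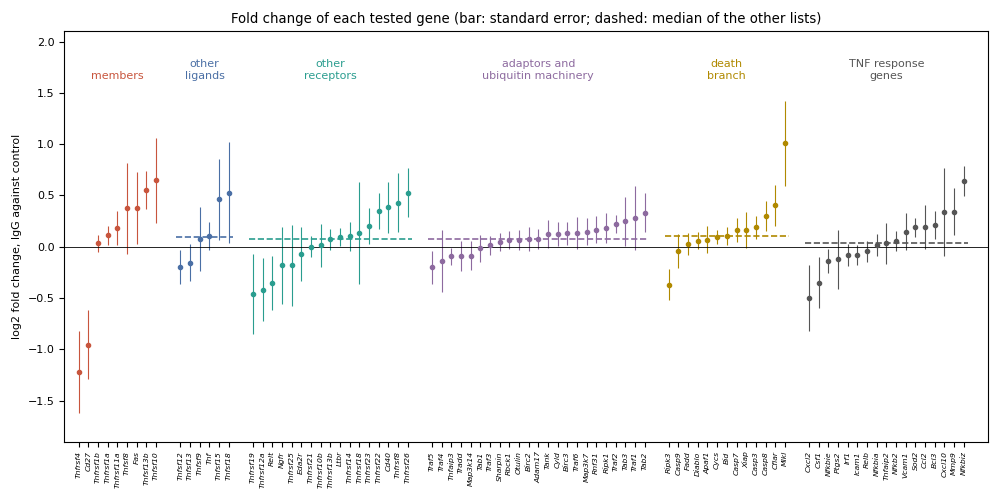
Log2 fold change, IgG against control, of each tested gene in edgeR, with standard errors as bars, for the members and the 5 other lists of the pathway. Dashed lines are the medians of the other lists, from 0.03 to 0.10 with TMM. With total counts alone the median of the TNF response genes is -0.06, beside -0.09 over all genes. Tnfrsf4 (-1.22) and Cd27 (-0.96) have the lowest values drawn and Mlkl (1.01) the highest.

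For each tested member, the genes whose log2 CPM correlated best with it over the 8 libraries were listed. These values share depth, date and treatment, and they are the best 3 of 17537 genes, so that they describe likeness only. By Pearson's r, Tnfsf10 was most like Gm12977 (0.990), Slfn3 (0.988) and Lpxn (0.988). Tnfrsf11a was most like Cdc25a (0.991), Gm14305 (0.987) and Rgs1 (0.985). The closest genes to Tnfsf8 were Hist1h2bl (0.951), Myom1 (0.937) and A230028O05Rik (0.907). Those of Tnfsf13b were Gm26852 (0.971), Hmgb1-ps7 (0.968) and Olfr77 (0.936). Fas was closest to Gm45213 (0.958), Vcpkmt (0.951) and Fancc (0.950). Tnfrsf1a was closest to Cct3 (0.964), Gm33370 (0.964) and Tmem192 (0.963), and Tnfrsf1b to Gm16235 (0.971), Gm48899 (0.949) and AC154486.3 (0.938). Tnfrsf4 was closest to Elmo2 (0.959), Gm17167 (0.941) and Afmid (0.939), and Cd27 to 4930519K11Rik (0.963), Tra2a (0.960) and Gm42839 (0.956).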

How the data were processed

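The authors discarded low-quality and adapter-containing reads and aligned the remainder to mm10 (GRCm38). HISAT2 2.2.1, SAMtools 1.12, Picard 2.26.3, featureCounts, R 4.1.2 and edgeR 3.36.0 are named in the submitters' processing notes. The authors deposited raw counts for each Ensembl identifier, without normalization. Use of strand is not given in the sources used here, so that overlapping and antisense genes are uncertain.

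Symbols, coordinates and exon lengths were from GENCODE M21 (55144 of 55385 identifiers matched). Counts were TMM-scaled, filtered with filterByExpr (17537 genes) and tested with edgeR 4.0.16 in R 4.3.3 (quasi-likelihood test, group only, Benjamini-Hochberg adjustment over all genes). Differences within a pair used log2 CPM with a prior count of 2. Length-scaled levels used the union of exons. Figures and motif searches were made with Python 3.11.15. The fits were tested on simulated counts in which 200 genes were changed. Among genes changed by 1 on the log2 scale, 85.3% were recovered without and 81.9% with the block, with 5 and 17 false calls. For replicate numbers it was 56.0%, with 20 false calls. In the simulations of the group no gene differed between replicate numbers, and the spread between libraries was that estimated with the block. The real libraries do differ between numbers, so that 85.3% is no measure of recovery there by the fit without the block. Recovery at the low counts of most members was not examined.

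Replicate numbers pair the libraries, because a control and an IgG library of a number share a date. After subtraction of group means, the 2 libraries of a number correlated at 0.44, 0.38, 0.26 and 0.31 over 14155 genes, and libraries of different numbers at -0.36 to 0.23. The members, the gene lists and the tests were chosen with earlier results of these data known. Genes named by rule were the members, their partners, genes of the other lists that met the criterion without or with the block, the 5 other family genes of highest level, and for each tested member the 3 genes of most similar level over the libraries. Tnfrsf26, Tnfrsf12a, Tnfrsf25, Traf2, Ripk3, Cflar, Cxcl10, marker genes and genes that overlap a listed gene were named outside this rule. All libraries of a group differed from each other by more than sampling noise (chi-square test).

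Alternatives were the block, total counts or DESeq2 size factors as scaling, DESeq2 1.42.0, no filter or at least 10 counts in every library, each library or pair left out, both IgG libraries of high mitochondrial share left out, and trends on exon length and GC content removed (lowess, span 0.3).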

Additional observations from a re-analysis of the deposited data

Results flagged for a closer look

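Of 64 groups of 4 libraries (control or IgG libraries of 1 tested gene of the family), 2 held a library far from the other 3, where chance gives about 1 in 20. Tnfrsf1a was at 120 CPM in IgG replicate 2, below the 141 to 143 CPM of the other IgG libraries. Tnfrsf25, a death domain receptor outside the 10 members, was at 2.05 CPM in control replicate 3, above the 1.25 to 1.31 CPM of the other control libraries.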

How the results depend on the processing

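Of 177 log2 fold changes of the 9 tested members under alternatives, 171 kept their sign, which is no sign of stability, since the members were chosen with this contrast known. The 6 that did not were Tnfsf8 without IgG replicate 3 (-0.07), Tnfsf10 (-0.15), Tnfrsf11a (-0.11) and Tnfrsf1b (-0.03) without IgG replicates 1 and 3, Tnfrsf1b with total counts alone (-0.07), and Tnfrsf1b without replicate 3 in the fit with the block (-0.00046). The cause was not tested. Over all genes the criterion was met by 148 genes, by 320 with the replicate block, 323 with length and GC trends removed in the fit with the block, 284 without a filter and 80 without IgG replicates 1 and 3. Leaving out 1 library gave 87 (IgG replicate 3) to 610 (IgG replicate 4), and leaving out a pair in the fit with the block up to 762 (replicate 4) and 326 (replicate 2). Total counts alone gave 142 genes, of which 42.3% were higher with IgG, against 68.9% with TMM. Members met the criterion as higher in number 1 with the block (Tnfsf10), 0 with length and GC trends removed in the fit with the block, and 0 or 1 when replicates were left out (Tnfsf13b without IgG replicate 1, Tnfsf10 without replicate 4 with the block), fits in which 63 of 17825 and 427 of 17554 genes met it as higher. As lower they numbered 1 with total counts alone (Tnfrsf4) and 0 or 1 when replicates were left out (Cd27 without IgG replicate 2, Tnfrsf4 without IgG replicate 3). In these fits 82 of 17537, 164 of 17766 and 28 of 17804 genes met it as lower, and both members passed the filter through the control group, where they are higher. Other family genes numbered 2 (Tnfrsf26 and Tnfrsf12a) without replicate 4 in the fit with the block, and otherwise 0. Genes of the death branch numbered 1 with the block, with length and GC trends removed and without a filter, and 0 to 2 when replicates were left out (2 without IgG replicate 4 and without replicate 4 with the block, Mlkl and Cflar). For the replicate number, 171 genes passed, 891 without a filter, 536 with DESeq2 and 6 to 183 when a pair was left out (6 without replicate 2). Members numbered 0, 1 without a filter and with DESeq2, and 0 or 1 when a pair was left out. The low members rest on 3 to 135 counts per library, so that counting error is part of their spread. Control libraries varied by more than counting alone gives for Tnfsf10 (44.6% against 12.7%), Tnfsf8 (41.4% against 25.4%) and Fas (32.4% against 17.6%). They did not for Tnfsf13b, Tnfrsf4 and Cd27 (18.4% against 22.8% for Cd27).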
